A study of Mus musculus with 36 samples.

Results

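Gene expression in the olfactory bulb (OB) was compared between 3 libraries of sex-separated females (SF) and 3 libraries of sex-separated males (SM), which are 6 of the 36 libraries of the series and were chosen by their labels. All mice were C57BL/6, weaned at 3 weeks of age, kept 4 to a cage and dissected at 6 months. From weaning on, the SF mice lived only with females and the SM mice only with males. They were kept in rooms of a single sex, which was meant to avoid odors of the opposite sex after weaning. Another 3 libraries each of sex-combined females (CF) and males (CM), who shared cages, serve below as the sex comparison under the other housing. Per the study's methods, pups were born in the sex-combined cages and were killed soon after birth. Mating and birth thus came with that housing and cannot be told apart from it. Each library was made from total RNA depleted of ribosomal RNA and pooled from several mice (2 per pool in the series record, 3 in the methods of the study), so the spread between libraries is a spread between pools. Expression is given as FPKM, the fragments per kilobase of transcript relative to the depth of a library, and differences as log2(FPKM + 0.5), females minus males. The comparison covers 12328 autosomal genes whose FPKM averaged 0.5 or more in the 12 OB libraries.

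The olfactory bulb is the first brain station of smell. Axons of the sensory neurons of the nose end there in glomeruli, where they contact mitral and tufted cells, the glutamatergic output neurons. Local GABAergic interneurons, the granule and periglomerular cells, shape that output and are added throughout life by neuroblasts that migrate into the bulb, and some periglomerular cells make dopamine.

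The sex genes followed the labels. Xist, the RNA that silences 1 X chromosome in females, was between 11.8 and 18.5 FPKM in SF and at most 0.00820 in SM, and the Y-linked helicase gene Ddx3y was listed at 0 in the SF libraries and at 12.1 to 16.4 FPKM in SM. These genes and the Y-linked Eif2s3y, Uty and Kdm5d were the only 5 genes past an adjusted p of 0.05. Bulb genes were abundant in all 6 libraries, with Gad1 (GABA synthesis) at 155 to 208 FPKM, Cdhr1 (a mitral and tufted cell cadherin) at 21.2 to 27.1 and Th (dopamine synthesis) at 37.9 to 52.4. Neurod6, a marker of cortical projection neurons, was between 0.323 and 0.798, and Omp, whose RNA lies in the axons of olfactory sensory neurons, between 33.5 and 39.4. The FPKM limits correspond to 3250825 fragments in SM1 and to between 4990486 and 5848032 in the others. SM2 stood apart in a few genes of other tissues, which were named after their values were seen. Ttr, the transthyretin of the choroid plexus, was at 21.0 FPKM in SM2 and between 0.261 and 0.508 in the other SF and SM libraries, and Mup4, a major urinary protein gene, was at 39.4 in SM2 and at most 1.48 in the others.

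No autosomal gene passed an adjusted p of 0.05 between SF and SM (0 of 12328, 0%), and the smallest adjusted p was 0.289, for Gm14204 (limma, Benjamini-Hochberg over 12794 genes). At an unadjusted p under 0.05 there were 558 genes (4.53%), of which 45 (0.365%) were higher in SF and 513 (4.16%) lower. Same-numbered SF and SM libraries deviated together, and with the replicate number as a block the count was 853, with 70 higher and 783 lower. The split of directions depended on the scaling of the libraries. The median difference of all autosomal genes was -0.066, and 75.3% of them had a negative difference. The median of a library against the gene means was lowest in SF1 (-0.15) and highest in SM2 (0.13). After quantile normalization, which gives all libraries 1 distribution, 316 genes (2.56%) were higher and 343 (2.78%) lower, with none past the adjusted threshold. List medians are therefore read below against the all-gene median of -0.066.

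**Figure D1:**
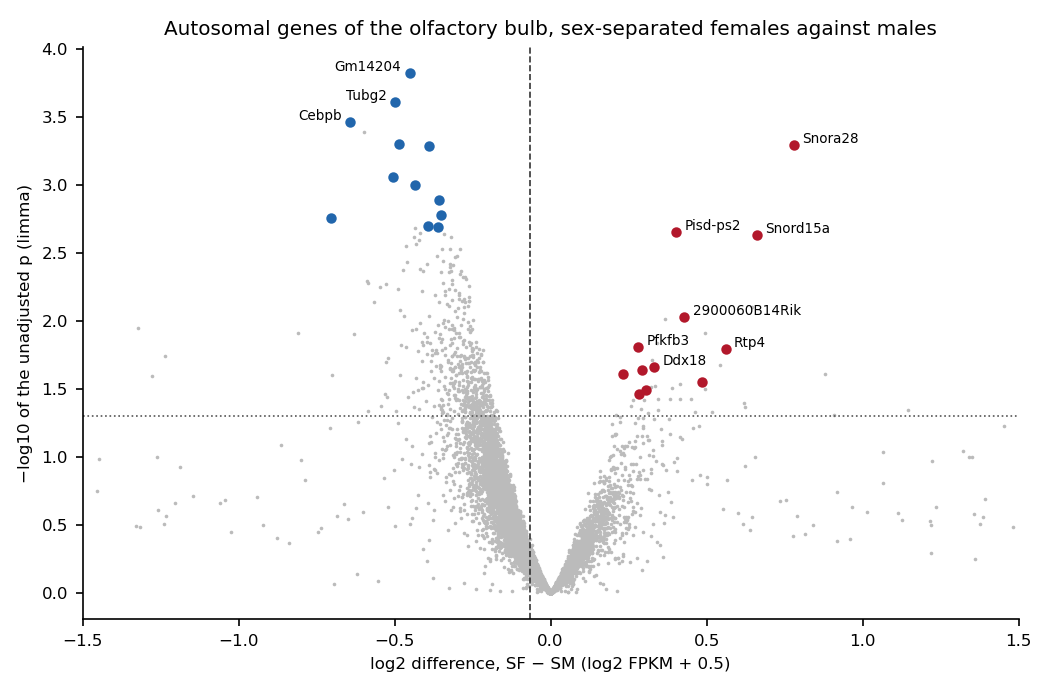
Each point is an autosomal gene, with its log2 difference SF minus SM on the x axis and the -log10 of its unadjusted p on the y axis. Red and blue points are the 12 named genes that were higher and the 12 that were lower in SF, the dotted line marks an unadjusted p of 0.05, the dashed line the median of all genes at -0.066, and 65 genes lie beyond the x axis limits of 1.5. The cloud leans to the left, with 513 genes above the dotted line on that side and 45 on the other, genes beyond the axis included.

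Few differences were large among genes above a low floor of fragments, on a scale that understates differences of low genes. Of 11677 autosomal genes that were above 0 and had at least 10 estimated fragments in each OB library, 1 differed by a log2 value of 1 or more (Pisd-ps3, a pseudogene, 1.14). SF and SM libraries did not overlap for 77 genes (0.625%) that were higher in SF and for 981 (7.96%) that were lower. Of the 981, 96 (9.79%) were also lower in each CF than in each CM library, against 7.25% of all autosomal genes, and 2 of the 77 were higher in CF, against 2.94%. Across the 12125 autosomal genes never listed at 0, the Pearson correlation of the SF minus SM with the CF minus CM differences was -0.058, and genes are not independent replicates.

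Of the 3 named genes with the smallest p among those higher in SF, 2 were small nucleolar RNAs (snoRNAs), the other being the pseudogene Pisd-ps2. These short RNAs guide the chemical modification of ribosomal RNA. Those with C and D boxes guide methylation, those with H and ACA boxes guide pseudouridylation, and most are cut out of introns of host genes. Snora28 is an H/ACA snoRNA, and Snord15a and Snord15b are both C/D snoRNAs. Their sequences (transcripts of GENCODE M21, matched by symbol) are shown because Snora28 and Snord15a are the 2 snoRNAs among those 3 genes. Snord15b, which is not among the named genes higher in SF, is set beside Snord15a. In capitals are the last ACA of Snora28 and the first TGATGA (C box) and the last CTGA (D box) of the others.
Snora28: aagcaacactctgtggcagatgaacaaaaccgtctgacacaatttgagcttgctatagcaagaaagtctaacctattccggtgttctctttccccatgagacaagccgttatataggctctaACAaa
Snord15a: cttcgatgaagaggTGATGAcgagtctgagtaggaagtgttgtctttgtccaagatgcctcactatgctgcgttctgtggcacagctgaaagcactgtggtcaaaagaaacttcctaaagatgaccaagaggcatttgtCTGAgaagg
Snord15b: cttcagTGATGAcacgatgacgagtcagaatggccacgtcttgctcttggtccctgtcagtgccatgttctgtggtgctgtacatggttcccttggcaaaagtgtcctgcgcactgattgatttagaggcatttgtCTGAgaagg
Snord15a and Snord15b have 65.6% identical positions in a global alignment.

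Snora28 (mm9, chromosome 12, 112779157 to 112779277) was at 401, 447 and 445 FPKM in SF and at 232, 277 and 245 in SM. All SF libraries lay above all SM libraries, which was a condition for naming a gene by p. The difference was 0.78 ± 0.17 (SE; adjusted p = 0.506, limma), or 1.71-fold in the means of 431 ± 26 and 252 ± 23 FPKM (SD, n = 3). Under combined housing the values overlapped, at 350, 372 and 446 in CF and 525, 397 and 315 in CM. Snord15a (mm9, chromosome 7, 106631295 to 106631442) was at 100, 96.7 and 107 in SF and 52.5, 81.3 and 60.7 in SM (0.66 ± 0.18; adjusted p = 0.960, limma). Snord15b was at 2461, 2209 and 2311 in SF and 2065, 1814 and 1642 in SM (0.34 ± 0.15). The host genes differed less than their snoRNAs, with Rps3, the host of both Snord15 genes, at 0.012 ± 0.12 and Eif5, the host of Snora28, at -0.13 ± 0.13. RNAs shorter than the sequenced fragments are poorly measured in FPKM, and the lowest library held an estimated 14.0 fragments of Snora28 and 11.9 of Snord15a.

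Of the list of snoRNAs and Cajal body RNAs, 74 autosomal members were tested. The median difference was 0.13, 49 were higher and 25 lower, and 8 had all SF values above all SM values (0.625% of all genes had) and 0 the reverse. At an unadjusted p under 0.05, 8 were higher and 2 lower, against 0.365% and 4.16% of all genes. In 32 members at least 1 OB library was listed at 0, among them Snord57 and Snord73b, so that their large fitted differences rest on listed zeros. Without those 32 the median was 0.19 (31 of 42 higher), and over the 18 members with at least 10 fragments in each OB library it was 0.18 (15 higher). The list score, the median of the members against their means minus the same over all genes, lay between -0.15 and 0.20 in SF and between -0.47 and -0.22 in SM. In sex-combined mice the order was the reverse, with CF between -0.21 and 0.043 and CM between 0.13 and 0.36, and the median CF minus CM difference was -0.28. After quantile normalization the SF minus SM median was 0.058, against 0.00050 for all genes, and 4 members were higher and 3 lower at an unadjusted p under 0.05, against 2.56% and 2.78% of all genes.

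Interferon-stimulated genes had the highest median of all lists. These genes are switched on when interferon activates transcription factors that bind a sequence known as the interferon-stimulated response element in their promoters, and their products restrict viruses and tune the same pathway. The element holds a repeat of GAAA, and GAAANNGAAA on either strand was found within the RefSeq promoter window (GRCm38.p6, 250 bases before to 50 after the start site) of 9 of the 14 listed genes that have such a window (64.3%) and of 3.99% of all 27025 genes. Ifit1, Ifit3 and Isg15, antiviral effectors, are shown with the 160 bases before their start sites, the matches in capitals (on the opposite strand in both Ifit genes, and 3 overlapping matches in Isg15).
Ifit1 promoter, chr19:34640729-34640888, plus strand: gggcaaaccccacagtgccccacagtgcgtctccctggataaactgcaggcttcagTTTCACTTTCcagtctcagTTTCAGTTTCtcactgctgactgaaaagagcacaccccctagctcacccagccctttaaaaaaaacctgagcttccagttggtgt
Ifit3 promoter, chr19:34583369-34583528, plus strand: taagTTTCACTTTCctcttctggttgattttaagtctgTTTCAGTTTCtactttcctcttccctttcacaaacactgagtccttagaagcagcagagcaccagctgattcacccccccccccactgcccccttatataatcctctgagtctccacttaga
Isg15 promoter, chr4:156200819-156200978, minus strand: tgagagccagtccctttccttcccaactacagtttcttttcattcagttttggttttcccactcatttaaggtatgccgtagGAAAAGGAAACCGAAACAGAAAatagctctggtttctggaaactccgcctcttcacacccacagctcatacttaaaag
A match describes the letters of the window and is not a measured binding site.

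Of 20 listed interferon-stimulated genes 16 were tested. Their median difference was 0.29, 14 were higher and 2 lower in SF, and 5 had an unadjusted p under 0.05, all higher in SF, where the share of all genes was 0.365%. None passed the adjusted threshold. Values after ± are SE of the difference. Rtp4, a chaperone of membrane receptors that interferon induces, was at 0.863, 1.25 and 1.59 FPKM in SF and 0.565, 0.676 and 0.745 in SM (0.56 ± 0.20). Irf9, part of the interferon-activated transcription complex, was at 2.17, 2.54 and 3.27 in SF and between 2.05 and 2.06 in SM (0.29 ± 0.11). These are the 2 members whose groups did not overlap, where 0.625% of all genes were higher in SF without overlap. Ifit1 was at 1.34, 1.62 and 2.61 in SF and 1.25, 1.41 and 1.12 in SM (0.39 ± 0.16), and Ifit3 at 2.96, 4.66 and 5.67 in SF and 3.29, 4.14 and 2.70 in SM (0.32 ± 0.20). Oasl2, of the oligoadenylate synthetase-like family, was at 0.594, 0.810 and 1.22 in SF and 0.603, 0.623 and 0.343 in SM (0.41 ± 0.17). Usp18, which removes ISG15 from proteins and dampens the pathway, was at 0.738, 1.17 and 1.82 in SF and 0.792, 0.834 and 0.597 in SM (0.45 ± 0.19). Isg15 itself was at 0.820, 1.41 and 2.26 in SF and 0.424, 1.27 and 1.56 in SM (0.35 ± 0.29), with an estimated 3.00 fragments in the lowest library.

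SF3 stood apart in these genes. It was the highest of the 6 libraries in 14 of the 16 members. The list score was 0.48 in SF3, 0.092 and 0.069 in SF1 and SF2, between -0.13 and -0.039 in SM, between -0.039 and -0.020 in CF and between -0.090 and -0.054 in CM. Without SF3 the median fell from 0.29 to 0.14 and 1 member had an unadjusted p under 0.05. The exceptions were Ifitm3, with 5.95 and 5.97 in SF1 and SF2, 3.78 in SF3 and 4.10 to 4.21 in SM, and Ifit2, which was highest in SM2, at 5.62 (SF minus SM -0.045 ± 0.14). With only the 6 SF and SM libraries in the fit 1 member was at an unadjusted p under 0.05. Antigen presentation genes, many of which interferon also induces, had a median of 0.048 (11 tested, 7 higher, none at an unadjusted p under 0.05), and B2m, the light chain of class I molecules, was at 40.9, 46.5 and 51.2 in SF and 39.0, 46.8 and 38.3 in SM. The 15 microglial markers had a median of 0.022 and none was at an unadjusted p under 0.05, but after quantile normalization 4 of them and 2 of the antigen presentation genes were, all higher in SF (2.56% of all genes were). Per the study, the main olfactory epithelium and the vomeronasal organ were taken from the same mice as the bulbs, so they are no independent repeat. In the main olfactory epithelium the list score was 0.056, 0.23 and 0.24 in SF and -0.11, 0.035 and -0.14 in SM. In the vomeronasal organ it was 0.012, 0.017 and 0.050 in SF and 0.064, 0.053 and -0.094 in SM.

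**Figure D2:**
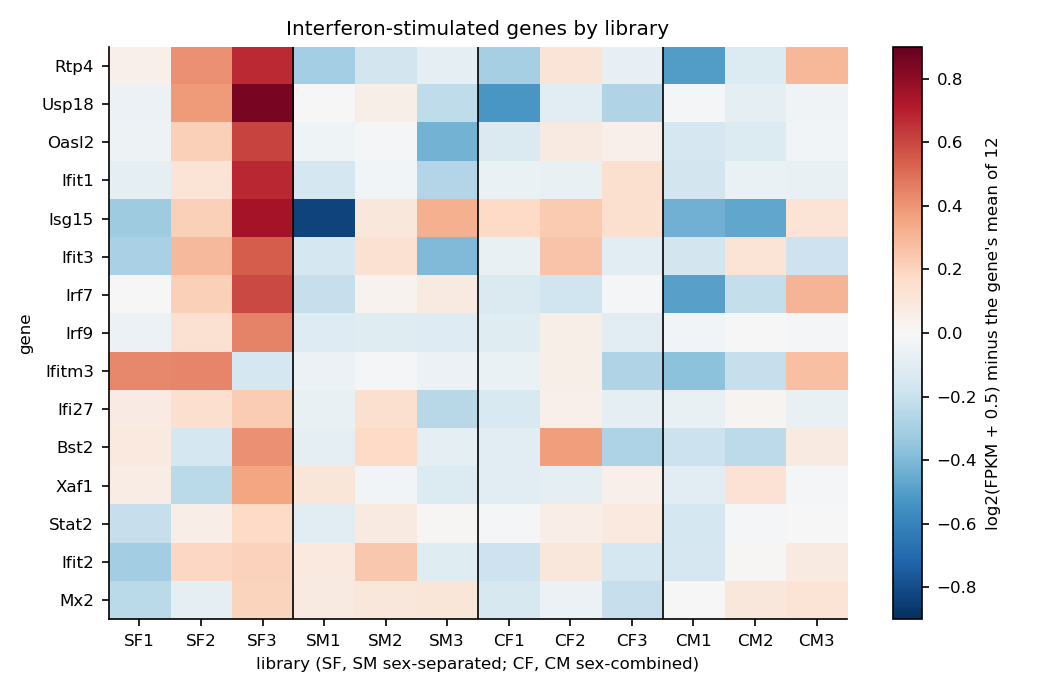
Rows are 15 of the 16 tested interferon-stimulated genes, columns the 12 OB libraries, and the color is log2(FPKM + 0.5) minus the gene's mean over the 12. The red column is SF3, the highest of the SF and SM libraries in 14 of all 16 genes, and SF2 follows for Rtp4, Usp18 and Ifit3.

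At the other end were the immediate early genes, which neurons transcribe within minutes of activity. Their median was -0.16. Of 20 tested 15 were lower, near the share of all genes (75.3%), and 2 had an unadjusted p under 0.05, both lower in SF (4.16% of all genes were), or 4 with the replicate block. Dusp1, a phosphatase that turns off MAP kinases, was at 3.85, 2.81 and 3.06 FPKM in SF and 5.44, 4.39 and 5.48 in SM (-0.59 ± 0.17). Jun, a subunit of the AP-1 transcription factor, was at 6.63, 7.68 and 6.44 in SF and 8.36, 9.33 and 8.65 in SM (-0.33 ± 0.095). Both were lower in each SF than in each SM library, while under combined housing CF minus CM was 0.29 for Dusp1 and 0.089 for Jun. With Fos, 3 of the 20 members were lower in SF without overlap, where 7.96% of all genes were. Fos, the partner of Jun, was at 12.1, 11.1 and 12.4 in SF and 14.5, 12.8 and 14.7 in SM (-0.23 ± 0.16), and Arc, a synaptic capsid-like protein gene, at 22.6, 20.5 and 23.0 in SF and 28.1, 22.8 and 28.2 in SM. Egr1, Egr3, Fosl2, Nr4a3 and Npas4 overlapped between the groups. The list score overlapped as well, between -0.23 and 0.063 in SF and between -0.19 and 0.20 in SM.
The Dusp1 promoter is shown because Dusp1 had the largest difference of the list, with TGACGTCA, the cAMP response element, in capitals. This palindrome was in the windows of Dusp1 and Btg2 among 16 list members with a window (12.5%) and of 2.03% of all genes.
Dusp1 promoter, GRCm38.p6, chr17:26508473-26508632, minus strand: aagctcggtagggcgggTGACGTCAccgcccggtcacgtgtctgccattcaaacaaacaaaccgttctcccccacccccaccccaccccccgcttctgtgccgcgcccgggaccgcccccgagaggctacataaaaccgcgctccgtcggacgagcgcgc

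GABAergic interneuron genes had a median of -0.14 (19 tested, 16 lower, where 75.3% of all genes were lower), and 4 were at an unadjusted p under 0.05, all lower in SF (4.16% of all genes were). In bulk tissue, fewer cells of a type and less RNA per cell cannot be told apart. Slc32a1, which loads GABA into vesicles, was at 22.9, 20.0 and 17.9 FPKM in SF and 27.9, 25.5 and 23.6 in SM (-0.34 ± 0.11). Tshz1, a transcription factor of granule cells, was at 22.0, 24.9 and 22.2 in SF and 27.1, 31.6 and 27.8 in SM (-0.32 ± 0.11). Dlx2, an interneuron fate factor, was at 1.72, 1.38 and 1.64 in SF and 2.11, 1.89 and 2.49 in SM (-0.36 ± 0.16). Gad2, the second GABA synthesis gene, was at 12.1, 14.9 and 15.5 in SF and 15.3, 18.1 and 16.6 in SM, with 1 SF library above the lowest SM library (-0.23 ± 0.11). Gad1, the most abundant synthesis gene, differed by -0.15 ± 0.12 and its groups overlapped. The markers of interneuron subtypes Calb1, Calb2, Scgn, Penk and Vip overlapped too, between -0.15 for Vip and 0.15 for Scgn. The list score was -0.041 to -0.018 in SF and 0.028 to 0.087 in SM, and in sex-combined mice it was higher in females, at 0.016 to 0.032 in CF and -0.030 to -0.0060 in CM. Relative to all genes the median was lower by 0.069, and after quantile normalization it was -0.087 with 1 member lower and 1 higher at an unadjusted p under 0.05.

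Glutamate receptor genes had a median of -0.12 with 21 of 22 lower (75.3% of all genes were). At an unadjusted p under 0.05, 2 were lower (4.16% of all genes were), and 1 after quantile normalization or with only the 6 libraries. Grin2c, an NMDA receptor subunit, was at 6.14, 6.13 and 5.84 FPKM in SF and 7.86, 7.31 and 7.47 in SM (-0.30 ± 0.083), and was lower also in CF (5.51 to 6.33) than in CM (6.56 to 7.49). Grik3, a kainate receptor subunit, was at 3.74, 3.72 and 4.42 in SF and 4.69, 4.91 and 4.44 in SM (-0.22 ± 0.10). The AMPA receptor subunits Gria1, Gria2 and Gria4 overlapped, with differences of -0.13, -0.060 and -0.017. The median was 0.056 under that of all genes. Voltage-gated potassium channel genes had a median of -0.092, which was 0.026 under that of all genes. Of 28 tested 26 were lower (75.3% of all genes were). At an unadjusted p under 0.05, 3 were lower (4.16% of all genes were), or 4 with the replicate block. After quantile normalization 3 were lower and 1 higher at that level. In 5 members all SF values lay under all SM values, where 7.96% of all genes did. Their list score overlapped between SF and SM and was higher in each CF than in each CM library. Kcnh2, the ERG channel, was at 6.75, 6.36 and 6.51 in SF and 8.15, 8.63 and 8.77 in SM (-0.36 ± 0.087).

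Mitral and tufted cell genes had a median of -0.12, and 7 of 8 tested were lower, near the share of all genes (75.3%). None was at an unadjusted p under 0.05, and 1 was lower at that level with the replicate block. Eomes, a transcription factor of these output cells, was at 10.9, 11.4 and 10.2 FPKM in SF and 11.7, 13.2 and 12.3 in SM (-0.18 ± 0.097), and Cdhr1 at 21.2, 24.5 and 24.1 in SF and 25.3, 27.1 and 25.8 in SM. The groups did not overlap for these 2 of the 8 members, where 7.96% of all genes were lower without overlap. Tbx21, a marker of the same cells, overlapped at 4.55 to 5.12 in SF and 4.54 to 5.20 in SM, and the list score overlapped, at -0.066 to 0.099 in SF and 0.033 to 0.064 in SM. Reln, a further marker of these cells, was not estimated by Cufflinks in some libraries and was left out. Dopamine neuron genes had a median of -0.073, close to that of all genes, with Th at 37.9, 47.7 and 39.2 in SF and 49.2, 52.4 and 44.4 in SM (-0.23 ± 0.12). Pericyte and smooth muscle genes had a median of -0.13 with 6 of 7 lower (75.3% of all genes were) and none at an unadjusted p under 0.05. Pdgfrb, the pericyte growth factor receptor, differed by -0.18 ± 0.10.

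Of 37 lists with at least 5 tested members, 28 had a median below 0 and 31 were within 0.1 of the all-gene median. The other 6 all lay above it, and were interferon-stimulated genes, snoRNAs, olfactory receptor genes, antigen presentation genes, oligodendrocyte genes and endoplasmic reticulum stress genes, the last with a median of 0.042 (13 tested, 10 higher, none at an unadjusted p under 0.05). After centring on all genes, SF and SM scores did not overlap for 6 lists. The 4 that were higher in SF were interferon-stimulated genes, snoRNAs, oligodendrocyte genes and cortical projection neuron genes, and the 2 that were lower were GABAergic interneuron and glutamate receptor genes. CF and CM did not overlap for 11 of the 37. Of the 6, GABAergic interneuron genes and snoRNAs had the opposite order in sex-combined mice, and interferon-stimulated genes the same order, without a test of the difference between housings. Oligodendrocyte genes had a median of 0.048, with the myelin gene Mbp at 151, 166 and 144 FPKM in SF and 145, 157 and 161 in SM. Astrocyte genes (-0.034), microglial genes (0.022), ribosomal protein genes (-0.072), oxidative phosphorylation genes (-0.056) and genes of migrating neuroblasts (-0.070) had 0 members at an unadjusted p under 0.05, while with the replicate block 1 ribosomal protein, 1 oxidative phosphorylation and 1 neuroblast gene were lower at that level. Olfactory sensory neuron RNAs had a median of -0.071 in SF minus SM and of -0.19 in CF minus CM. Olfactory receptor genes, of which 5 clustered members (Olfr112 to Olfr116) reached the level for testing, had a median of 0.081, and reads of such close paralogs are hard to assign. Choroid plexus genes were too few to summarise, since of 6 only Ttr and Aqp1 were tested, and Ttr was set by SM2. Of the dividing cell markers, 0 reached a mean FPKM of 0.5.

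**Figure D3:**
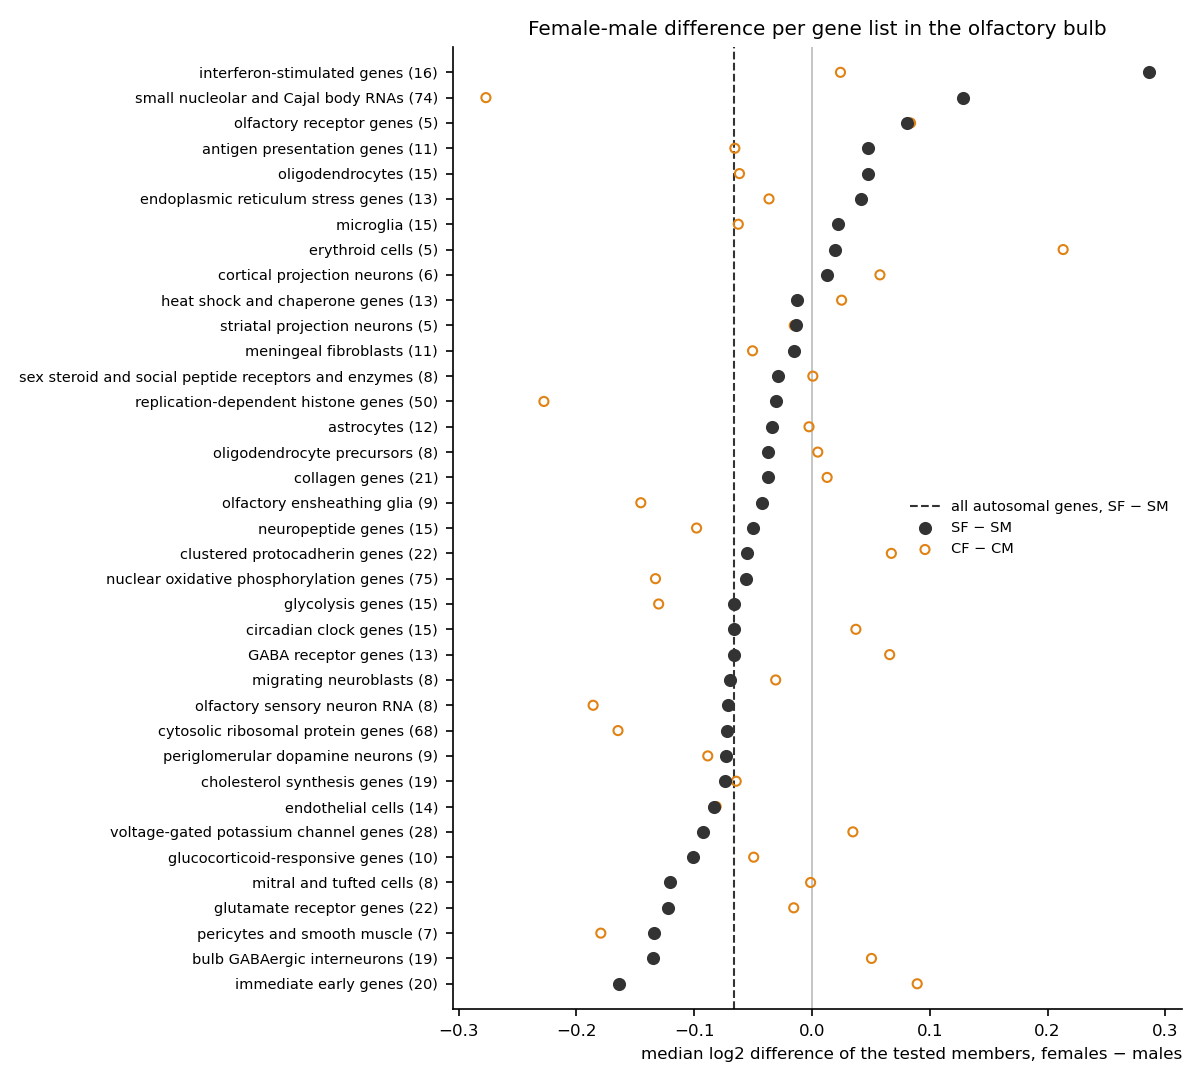
Each row is a gene list with at least 5 tested members (their number in brackets), and the x axis is the median log2 difference of the members, females minus males. Filled points are SF minus SM and open points CF minus CM, and the dashed line is the SF minus SM median of all autosomal genes at -0.066. Interferon-stimulated genes (0.29) and snoRNAs (0.13) stand to the right, and immediate early (-0.16) and GABAergic interneuron genes (-0.14) to the left.

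**Figure D4:**
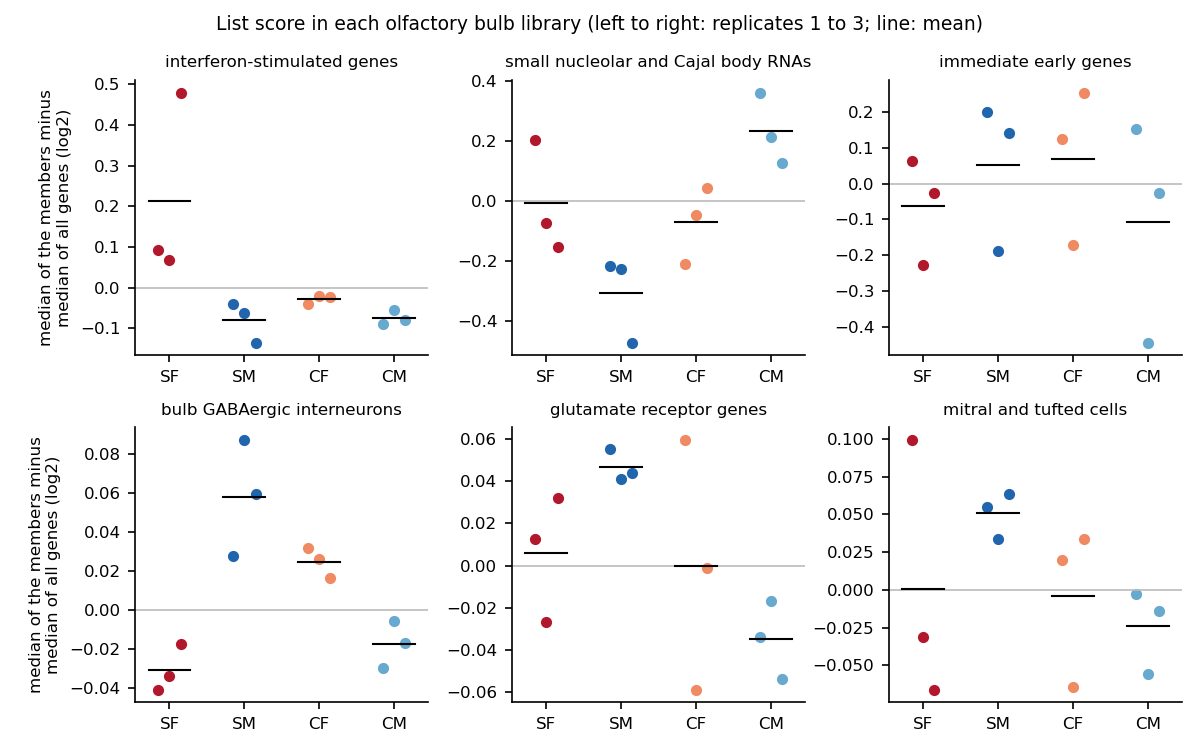
Points are libraries in the order of their replicate numbers, the y axis is the list score after subtraction of the score of all genes (log2), and bars are means of 3. SF3 lies at 0.48 for interferon-stimulated genes, and SF and SM are apart for snoRNAs, GABAergic interneuron genes and glutamate receptor genes but not for immediate early and mitral cell genes.

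Among single genes that were lower in SF, Gm14204, an unnamed transcript (mm9, chromosome 2, 158421208 to 158436459), had the smallest p. It was at 4.47, 4.47 and 5.01 FPKM in SF and 6.23, 6.70 and 6.68 in SM (-0.45 ± 0.085). Tubg2, a gamma-tubulin, was at 1.56, 2.03 and 1.64 in SF and 2.43, 2.71 and 2.84 in SM (-0.50 ± 0.10). Dusp7, a phosphatase of MAP kinases, was at 5.34, 5.46 and 5.26 in SF and 6.76, 7.01 and 7.75 in SM (-0.39 ± 0.085). Grn, the gene of the lysosomal growth factor progranulin, was between 3.64 and 4.41 in SF and at 5.15, 5.73 and 4.88 in SM (-0.35 ± 0.088). The remaining lower genes named by the rule were Cebpb, Rnasek, 1110038B12Rik, Vps9d1, Kcnh2, 5430405H02Rik, Trim8 and Trpc4, and the 12 spanned -0.70 to -0.35. The 12 that were higher spanned 0.23 to 0.78 and were, beside Snora28, Snord15a, Rtp4 and Irf9, Pisd-ps2, 2900060B14Rik, Pfkfb3 (a regulator of glycolysis), Ddx18, Smn1 (the spinal muscular atrophy gene), Nlrp5-ps, Mmp19 and Rxrg (a retinoid receptor). All adjusted p-values of the 24 were 0.289 or more. In the sex-combined libraries, whose direction of difference was not a criterion, although they entered the fit and the fragment and zero filters, 7 of the 12 lower genes were again lower in females (59.7% of comparable genes were) and 3 of the 12 higher genes again higher (40.3%).

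Cebpb, a transcription factor of inflammatory responses (mm9, chromosome 2, 167514415 to 167515932), was the one of the 24 whose groups did not overlap in the same direction under both housings. Of 11677 comparable genes, 7.21% had all CF values under all CM values, and in 35 all females lay apart from all males. In each of the 35 the females were lower, the direction to which all genes leaned (75.3% were lower in SF than in SM). Cebpb is among the 35. It was at 2.61, 1.98 and 2.14 FPKM in SF and 3.82, 3.40 and 4.07 in SM (-0.64 ± 0.13; adjusted p = 0.486, limma), and at 1.71, 2.52 and 1.73 in CF and 3.58, 3.11 and 2.99 in CM (-0.60). Averaged over both housings, a contrast added after these values had been seen, the difference was -0.62 ± 0.094 with an adjusted p of 0.0319, and over 18 alternative settings that p lay between 0.00378 and 0.226, with 5 under 0.05. With the replicate block it was 0.0903 and the contrast called 1 autosomal gene, which was not Cebpb. With single libraries left out it stayed under 0.05 without SF1 or CF2 and was above it without each of the others. After quantile normalization it was 0.226. The lowest OB library held an estimated 14.7 fragments. That contrast called 3 autosomal genes (0.0243%), the other two being Mir6516 and Fbxl15, which were listed at 0 in some libraries. In the main olfactory epithelium of these mice Cebpb was at 15.2, 11.0 and 17.2 in SF and 19.2, 16.8 and 14.6 in SM, where the groups overlapped. In their vomeronasal organ it was at 13.1, 10.4 and 13.2 in SF and 18.7, 21.5 and 12.9 in SM, which also overlapped.

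The 3 genes named for the smallest p of the sex by housing interaction had opposite sex differences under separate and combined housing. A choice by that p favors opposite directions, so the reversal is not a separate result. Rnasek, a subunit of the vesicular proton pump, was at 20.9, 22.5 and 24.0 FPKM in SF and 30.7, 31.4 and 32.8 in SM (-0.49 ± 0.11), but at 27.0, 29.0 and 26.0 in CF and 19.7, 20.0 and 25.3 in CM (0.34). B230217C12Rik was at 5.14, 5.46 and 6.34 in SF and 6.94, 6.65 and 7.69 in SM (-0.31 ± 0.099), with CF minus CM at 0.38. Tox3, a chromatin-associated factor of neurons, was at 0.962, 0.885 and 0.991 in SF and 1.28, 1.31 and 1.42 in SM (-0.35 ± 0.098), with CF minus CM at 0.29. The adjusted interaction p-values were 0.431, 0.885 and 0.999 (limma). The interaction called 1 autosomal gene (0.00811%), Mir6516, which was listed at 0 in all CF libraries and was also the only gene called in CF minus CM.

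**Figure D5:**
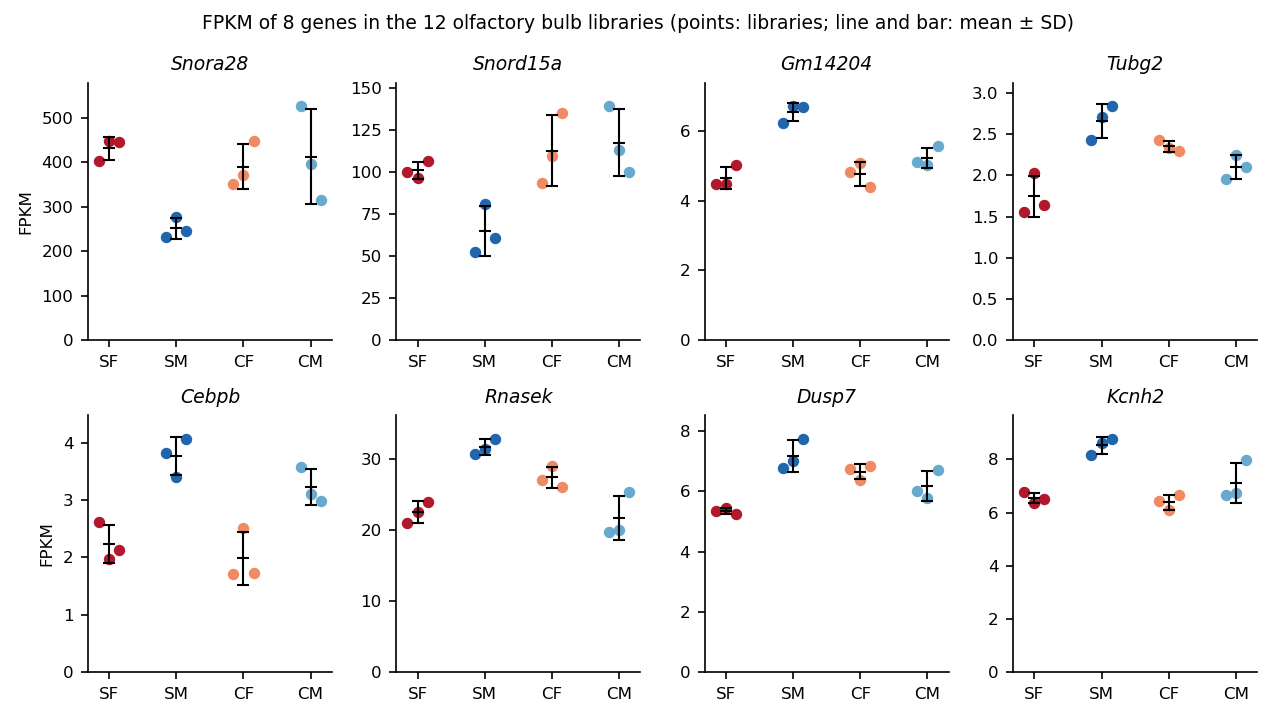
FPKM of 8 genes in the 12 OB libraries, with points as libraries and bars as mean ± SD of 3. The 8 genes were chosen in part because SF and SM did not overlap, and Rnasek also by its interaction p. Snora28 and Snord15a are higher in SF than in SM and overlap between CF and CM. Cebpb is lower in females under both housings, and Rnasek has opposite orders in the sex-separated and sex-combined groups.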

How the data were processed

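RNA-seq was carried out on 36 libraries, of which the 12 OB libraries were analysed. Per the labels and the study's methods, the authors aligned read pairs with TopHat2 2.1.0 to mm9 and estimated FPKM values per RefSeq transcript with Cufflinks 2.2.1.0, and deposited these FPKM values with confidence limits. No step scaled the libraries to each other, so that each FPKM depends on the composition of its library. Transcripts were assigned to gene symbols by RefSeq accession (99.73% of 40008 entries) and summed per gene. 1 gene with a failed estimate (Reln) was left out. Fragments per gene were estimated by squaring the quotient of FPKM and the SE that the limits imply, which covers counting error only.

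Groups came from the sample titles. For genes whose FPKM averaged 0.5 or more, log2(FPKM + 0.5) was fitted with limma 3.58.1 in R 4.3.3 (lmFit, eBayes with trend) over 4 groups and 12 libraries, with p-values two-sided and adjusted by Benjamini-Hochberg over 12794 genes. The script was tested on simulated data. On this scale differences of low genes are understated. Values were summarised with Python 3.11.15, numpy 2.4.6 and pandas 2.3.3 and drawn with matplotlib 3.10.9.

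Deviations of same-numbered SF and SM libraries from their group means correlated at 0.13 to 0.18 in each of 3 pairs, so the replicate number pairs them by the rule used (each over 0.1). Over all pairs of the 4 groups the range was -0.0023 to 0.39. This pairing comes from the data, since the labels give no shared source.

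The 40 gene lists and the genes to compare were chosen with earlier results of these data known. Named were the 12 autosomal genes with the smallest p in each direction among those whose groups did not overlap, that were never at 0 and had at least 10 fragments in each OB library, then per list its first tested member and the 3 with the smallest p, then the 3 genes with the smallest interaction p, and sex and sensory markers. Other genes were named after their values were seen. Alternatives were pseudocounts of 0.1 and 1, no filter, a mean FPKM of at least 2, quantile normalization, the replicate block, only the 6 libraries, and each library left out. Promoter windows are from RefSeq on GRCm38.p6, whose coordinates are separate from the mm9 loci of the files. Some genes of the lists are not reported here by name.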

Additional observations from a re-analysis of the deposited data

Results flagged for a closer look

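For 1 autosomal gene, Mir6516, the female-male difference differed between the housings by the interaction term of limma (adjusted p = 0.000387). It was listed at 43.4, 59.3 and 70.0 FPKM in SF and 121, 126 and 26.4 in SM, and at 0 in each CF library against 166, 116 and 86.4 in CM. A listed 0 of so short an RNA can be a failed estimate, which was not tested.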

How the results depend on the processing

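Limits are set by 3 pools per group, by values without a common scale, and by SM1, which held the fewest fragments. Between SF and SM the number of autosomal genes past the adjusted threshold was 0. It was 1 with no filter (C1ql4), 2 with only the 6 libraries (Mir682 and Yipf2), and between 0 and 2 with single libraries left out, and 3 in the contrast over both housings. It was 1 without SF2, SF3 or SM3 and 2 without SM1. C1ql4 and Mir682 were listed at 0 in all SF libraries and Yipf2 at 0 in all SM libraries, so their calls rest on listed zeros. C1ql4 and Mir682 also had fewer than 10 estimated fragments in every OB library. At an unadjusted p under 0.05 the count of 558 became 935 with no filter, 853 with the replicate block, and 329 to 1028 with single libraries left out (329 without SM2, 1028 without SF2). Without SF1 the all-gene median was -0.0058. Between CF and CM 1 gene was called, 2 with no filter, with quantile normalization or with the replicate block, and 1 to 4 with libraries left out. The interaction called 1 gene, and 1 to 4 with libraries left out. With the block no gene passed the adjusted threshold in SF minus SM, and the members at an unadjusted p under 0.05 became 4 for immediate early, 5 for GABAergic interneuron, 3 for glutamate receptor, 6 for interferon-stimulated and 1 for dopamine neuron genes, beside the changes given above. Of 140 alternative list medians 138 moved by less than the spread of the list score between libraries. This is a wide yardstick, under which a median can change sign and still count as unmoved. With no filter, the replicate block or only the 6 libraries, the medians could not move, since members and group means stay the same. Leaving out members at 0 could change only lists that hold such members. The exceptions were pericyte genes at -0.066 after quantile normalization and olfactory receptor genes at 0.26 with a mean FPKM of at least 2. With single libraries left out, medians ranged from 0.14 to 0.36 for interferon-stimulated genes, 0.064 to 0.25 for snoRNAs, -0.23 to -0.14 for immediate early genes, -0.20 to -0.051 for GABAergic interneuron genes, -0.17 to -0.071 for glutamate receptor genes, -0.19 to -0.082 for mitral and tufted cell genes, -0.19 to -0.077 for pericyte genes, -0.15 to 0.0074 for dopamine neuron genes, -0.029 to 0.10 for antigen presentation genes and 0.042 to 0.12 for olfactory receptor genes. The 26 genes named by p kept their direction in all 331 alternatives fitted for them. SF and SM did not overlap in these genes, for most by the rule that named them. Only quantile normalization could therefore have reversed a direction, and the other alternatives are no test of it. The causes were not tested.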
